A study of Mus musculus with 7 samples.

Results

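The genes described here are 30 genes of cholesterol and fatty acid synthesis and of its regulation, out of 55416 gene identifiers counted in mouse hippocampus. They were chosen by name and not by a measured value, although earlier results of these data were known when the list was drawn up, and all 30 were found and had enough reads to be tested. RNA-seq was performed on hippocampi of male, age-matched mice of the outbred CD1 stock, and the age in weeks was not given. Control (untreated) mice gave 3 libraries, replicates 1, 2 and 3. Mice given DMSO intraperitoneally, 2 times per week for 2 months, gave 2 libraries, replicates 2 and 3. Mice given ONX-0914, an inhibitor of the non-constitutive (immuno)proteasome, at 10 mg/kg by the same route and schedule gave 2 libraries, replicates 1 and 2. The control mice received no injection, so DMSO against control compares DMSO and the injections together with neither. The sources do not say whether each library came from a separate mouse, and p-values therefore measure the spread between libraries only.

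Cholesterol is built from acetyl-CoA. The mevalonate arm makes isoprenoid units from acetyl-CoA, and a second series of enzymes joins them into squalene, closes the ring and trims it to cholesterol. Fatty acids start from the same acetyl-CoA through citrate, malonyl-CoA and fatty acid synthase. Both pathways are switched on by the SREBP transcription factors, which the escort protein SCAP carries out of the endoplasmic reticulum when sterols are low and which the INSIG proteins hold back when sterols are high. The brain makes its own cholesterol, since lipoprotein cholesterol of the blood does not cross the blood-brain barrier. Oligodendrocytes use much of it for myelin, and astrocytes supply neurons.

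None of the 30 genes was a differentially expressed gene (DEG, FDR below 0.05 with edgeR) after ONX-0914 or DMSO. All 4 members with an unadjusted p below 0.05 in ONX-0914 against control lay higher after ONX-0914, namely Msmo1, Stard4, Srebf1 and Elovl6, a share (13.3%) near the 10.6% of all genes tested. For Stard4, which carries cholesterol between membranes, both ONX-0914 libraries lay above all 5 other libraries, as they did for 11.4% of all genes, about 1.60-fold above control. For 10 other members (33.3%, against 23.4% of all genes), one ONX-0914 library lay above and the other below all control libraries, and these 2 libraries also differed in marker genes of brain regions and cell types.

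The ONX-0914 libraries stood apart and are described first. The total count on genes was 2842675 to 3877006 in 6 libraries and 13782270 in ONX-0914 replicate 2. In the library labelled ONX-0914 replicate 1, the 10 marker genes of thalamus and midbrain summed to 987 CPM (read counts scaled to library size, with TMM factors), against 83.4 to 124 CPM in each other library, and 9 of 10 lay above all control libraries. Of these 10 markers, 0 had no read in this library and 2 or 3 had none in each other library. In ONX-0914 replicate 1, the 9 striatal markers summed to 1039 CPM, against 104 to 186 CPM elsewhere. The 10 markers of hippocampal neurons summed to 2928 CPM in the same library and to 7761 CPM in ONX-0914 replicate 2. The sums were 8701 to 9874 CPM in control libraries and 8451 and 8366 CPM in the DMSO libraries. In replicate 1, 9 of 10 lay below all control libraries. In replicate 2, 6 of 10 lay below and 2 above all control libraries. Thus the marker genes of replicate 1 went against the label hippocampus. In ONX-0914 replicate 2, the 12 oligodendrocyte and myelin markers summed to 4771 CPM, against 5443 to 8176 CPM in control libraries and 10672 CPM in ONX-0914 replicate 1. The 8 astrocyte markers lay at a median of -0.42 (log2 difference from the control mean) in ONX-0914 replicate 2 and at 0.24 in replicate 1. They summed to 5479 CPM in replicate 2 and 6126 CPM in replicate 1, both below the 6306 to 6738 CPM of control libraries. In replicate 1, 5 of the 8 lay above and 2 below all control libraries. The 5 endothelial markers summed to 246 and 250 CPM in the ONX-0914 libraries, 139 and 180 CPM in the DMSO libraries and 135 to 148 CPM in control libraries. The 6 choroid plexus markers summed to 39.9 to 189 CPM in control and 53.9 to 185 CPM in the other libraries, with at most 1 of them without a read. The 8 microglial markers summed to 290 to 311 CPM in control, 334 and 374 CPM in DMSO and 345 and 472 CPM in ONX-0914 libraries, and the 5 markers of oligodendrocyte precursors to 159 to 173 CPM, 169.6 and 143 CPM, and 166 and 108 CPM. The part of these differences in the results below was not tested. In bulk tissue, fewer cells of a type and less RNA per cell cannot be told apart.

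**Figure D1:**
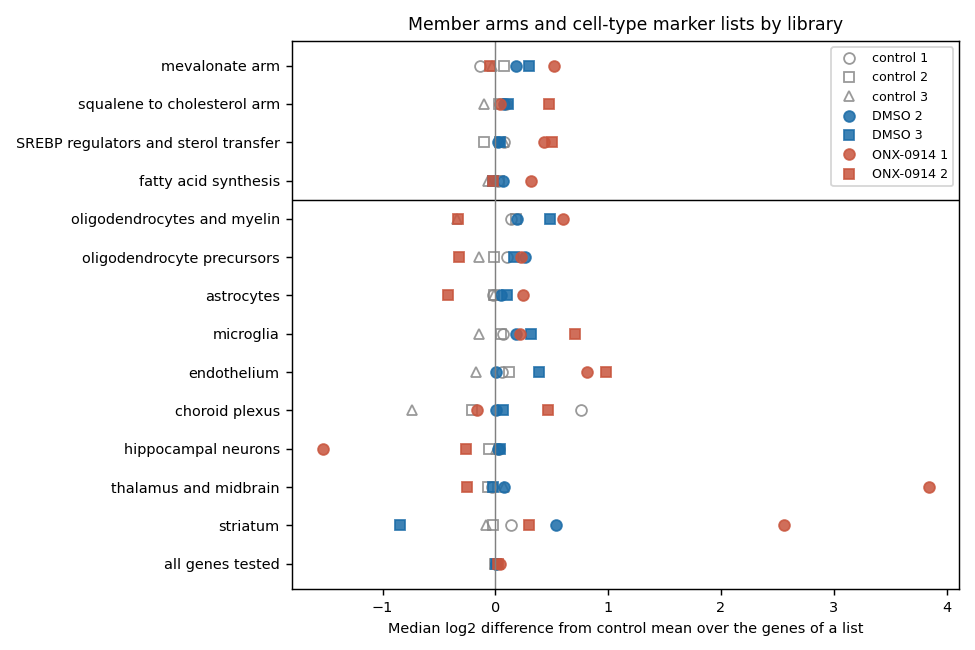
Median log2 difference from the control mean (x axis, log2(CPM + 0.5)) for the 4 arms of the members and for 9 marker lists and all genes tested, 1 point per library. ONX-0914 replicate 1 sits at 3.84 for thalamus and midbrain and at -1.53 for hippocampal neurons, while the medians of the arms lie between -0.05 and 0.52 in the ONX-0914 and DMSO libraries.

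In control hippocampus the members covered a wide range of levels per kilobase (CPM divided by the length of all annotated exons of the gene in GENCODE M21). A gene with many annotated isoforms has a longer sum of exons and so a lower value on this scale. Scd2, the main stearoyl-CoA desaturase of brain, stood highest at 256 CPM per kilobase, followed by Scd1, its close relative, at 72.9. Hmgcs1, the HMG-CoA synthase, led the mevalonate arm at 40.8 CPM per kilobase. Insig1, which retains SCAP in the endoplasmic reticulum, led the regulators at 26.4, and Cyp51, the lanosterol demethylase, led the squalene to cholesterol arm at 20.0. Srebf2, the factor for sterol genes, stood at 25.1 CPM per kilobase and Srebf1, the factor for fatty acid genes, at 5.93. The lowest members were Fdps, the farnesyl diphosphate synthase, at 0.432 CPM per kilobase, Idi1, an isomerase of isoprenoid units, at 1.75, and Lss, which closes the sterol ring, at 1.79. Fdps rested on 3, 9 and 7 reads in the control libraries.

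**Figure D2:**
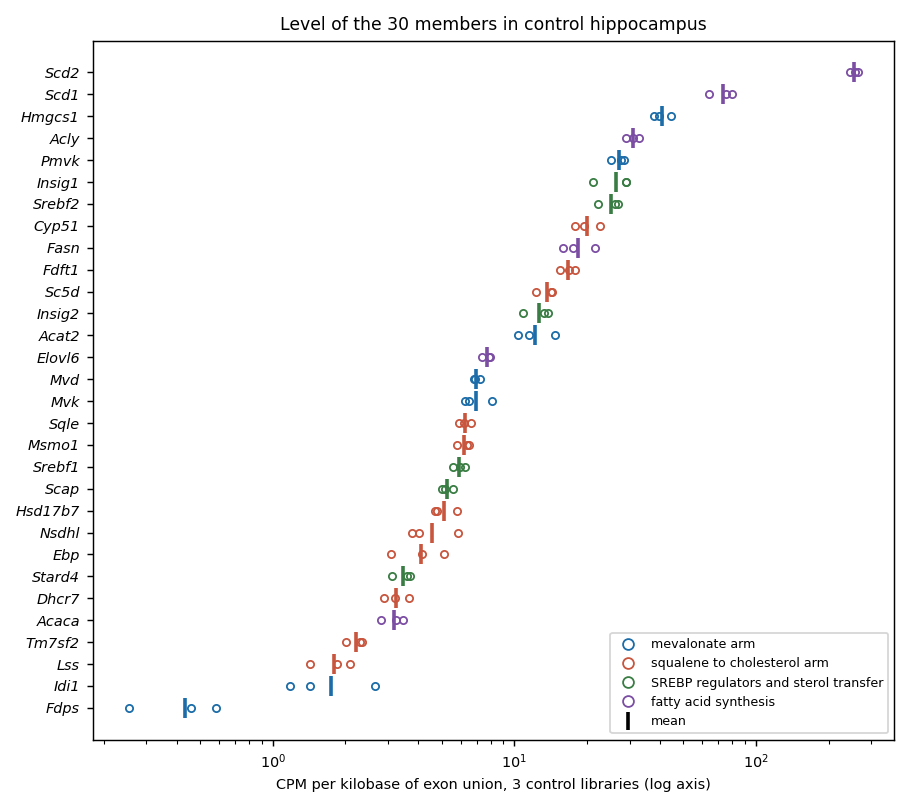
Level of each member in control hippocampus (x axis, CPM per kilobase of exon, log axis; circles, 3 control libraries; vertical bars, their mean; colour, arm). Levels run from 0.432 for Fdps to 256 for Scd2, and the 3 control circles of Scd2 lie above those of every other member.

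Some of these counts are uncertain, because the reads of 100 bases cannot always be assigned to 1 gene. Of all 100-base windows of the Fdps transcript, 75.8% also occur in other genes, among them processed pseudogenes. The share was 42.8% for Acaca (acetyl-CoA carboxylase), 35.3% for Acat2 (the cytosolic thiolase, which shares sequence with Acat3 and overlaps Tcp1), 27.6% for Idi1, 21.5% for Fdft1 (squalene synthase), 10.8% for Hmgcs1 (an antisense gene) and 7.22% for Scap. It was at most 2.66% for the other 23 members. The count files list 0 reads as mapping to several places in every library, and the strand setting of the counting is not given in the sources used here.

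Promoters of 24 of the 30 members were present in a RefSeq table of the build GRCm38.p6, which holds 250 bases before to 50 bases after each start. The counts were made on GRCm39, so these windows are context for the genes and not coordinates of the counts. Scd2, Fdps, Stard4, Fdft1, Scd1 and Sqle had no entry. The letters CCAAT, bound by NF-Y, a partner of the SREBP proteins, were found on either strand in 20 of 24 members (83.3%), against 41.1% of 27025 genes in the table. A gene was counted if any of its listed promoters held the letters. Counted by promoter, 21 of 32 promoters of members held them, against 37.4% of 32851 promoters in the table. The letters TCACNCCAC, a form of the sterol regulatory element, were found in 1 of 24 members, Hmgcs1 (4.17%, against 1.44% of all genes). In Hmgcs1 these letters did not overlap a CCAAT. A stricter form of the element, which contains these letters, was found in 0 of 24 members (against 0.0999% of all genes). The windows of Hmgcs1, Insig1 and Srebf1 are printed, since these genes carry the contrast between a sterol enzyme, a sensor and a factor of the same pathway, and the capitals mark the letters searched (ATTGG is CCAAT read on the other strand). Hmgcs1 lies at chr13:119690101-119690350 on the plus strand, Insig1 at chr5:28071162-28071362 on the plus strand and Srebf1 at chr11:60210472-60210721 on the minus strand, the last of 3 starts listed for it, and only bases before the annotated exons are given.
Hmgcs1: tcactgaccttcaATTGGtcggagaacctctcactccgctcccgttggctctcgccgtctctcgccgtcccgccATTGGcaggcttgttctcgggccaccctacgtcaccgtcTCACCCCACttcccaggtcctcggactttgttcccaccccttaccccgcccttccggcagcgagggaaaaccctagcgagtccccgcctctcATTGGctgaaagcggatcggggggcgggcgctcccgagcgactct
Insig1: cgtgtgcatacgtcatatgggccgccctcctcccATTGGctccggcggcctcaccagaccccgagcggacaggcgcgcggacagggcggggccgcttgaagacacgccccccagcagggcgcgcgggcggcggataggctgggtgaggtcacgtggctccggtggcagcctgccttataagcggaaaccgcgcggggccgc
Srebf1: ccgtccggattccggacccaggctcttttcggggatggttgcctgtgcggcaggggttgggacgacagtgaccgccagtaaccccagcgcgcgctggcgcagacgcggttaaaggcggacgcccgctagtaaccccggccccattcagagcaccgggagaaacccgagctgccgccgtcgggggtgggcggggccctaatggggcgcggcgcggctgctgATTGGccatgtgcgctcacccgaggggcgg
Hmgcs1 held 3 copies of CCAAT and the sterol element letters, while Insig1 and this start of Srebf1 held 1 copy of CCAAT each. Among the other members described below, Msmo1 held 3 copies, Cyp51 held 1 and Elovl6 held 0. A match in these windows is a description of letters, not of binding.

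Next, ONX-0914 was compared with control, a comparison that includes ONX-0914 replicate 1 and its marker differences. Of 13152 genes tested, 15 (0.114%) were DEG in ONX-0914 against control, and 0 of the 30 members were. DESeq2 and limma voom also called 0 members, with 1.32% and 0.137% of all genes called. DESeq2 was run without the filter on low counts, so its shares of all genes, here and below, are of 26822 genes. Without adjustment, 4 members (13.3%) had p below 0.05 with a higher level after ONX-0914 and 0 with a lower level, against 10.6% and 8.04% of all genes tested, and DESeq2 gave 3 members at this level (7.36% of all genes). The share of members with p below 0.05 and a higher level was thus near that of all genes. The share with p below 0.05 and a lower level was below that of all genes. Of the members, 25 had a positive Log2FC (83.3%, against 53.8% of all genes), with a median of 0.25 against 0.05 for all genes. The Log2FC values of the members ran from -0.43 to 0.76, and the 95% confidence intervals of 26 members included 0.

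**Figure D3:**
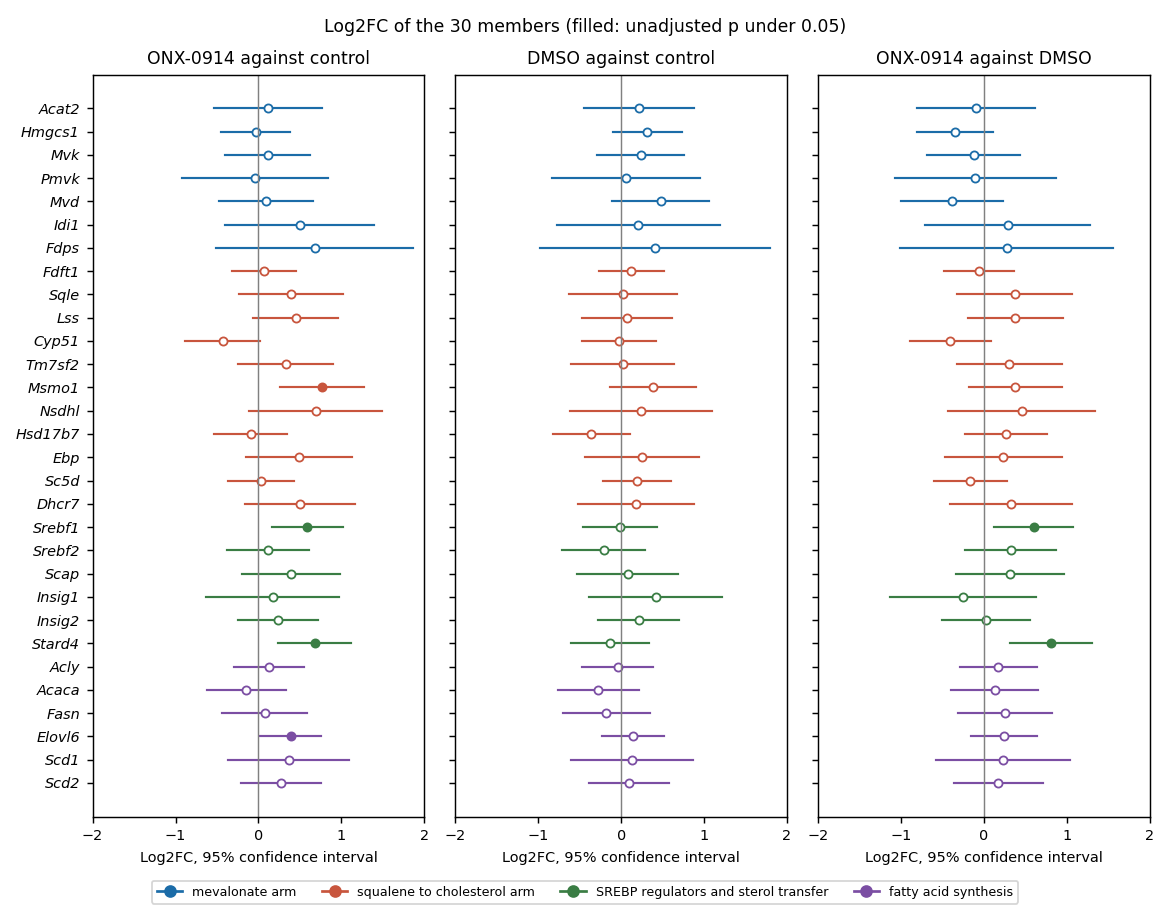
Log2FC (x axis, edgeR) of the 30 members in 3 comparisons, with 95% confidence intervals; colour gives the arm, and filled points have an unadjusted p below 0.05. Filled points are Msmo1, Srebf1, Stard4 and Elovl6 on the left and Srebf1 and Stard4 on the right, with none for DMSO against control.

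In the mevalonate arm, no member stood out. Hmgcs1, which commits acetyl-CoA units to HMG-CoA, had 205, 183 and 174 CPM in control replicates 1 to 3, 209 and 257 CPM in the DMSO libraries and 201 and 165 CPM in the ONX-0914 libraries. The ONX-0914 libraries lay within or just below the control range, and both DMSO libraries lay above it. Its Log2FC was -0.04 (SE 0.18, FDR = 0.93) in ONX-0914 against control, 0.31 (SE 0.18) in DMSO against control and -0.35 (SE 0.20) in ONX-0914 against DMSO. Whether reads of its antisense gene were counted for Hmgcs1 depends on the strand setting, which is not given.
The other 6 members of the arm had Log2FC values from -0.04 (Pmvk, phosphomevalonate kinase) to 0.68 (Fdps) in ONX-0914 against control. The 2 ONX-0914 libraries went apart here, with 6 of 7 members higher in replicate 1 than in replicate 2. The median difference of the arm from the control mean was 0.52 in replicate 1 and -0.05 in replicate 2. Pmvk was at 68.7 CPM in ONX-0914 replicate 1 and at 23.4 CPM in replicate 2, with 43.1 to 48.8 CPM in control, the widest gap between them among the 30 members. Mvd, the mevalonate decarboxylase, moved the other way, with 11.1 CPM in replicate 1 and 15.9 CPM in replicate 2, while control libraries held 12.7 to 13.4 CPM.

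In the squalene to cholesterol arm, Msmo1 had the largest positive Log2FC of the 30 members and Cyp51 the largest negative one. Both enzymes act in the removal of methyl groups from lanosterol, though not in consecutive steps. Msmo1, which oxidises the methyl groups that are then removed, had 39.2, 39.8 and 35.5 CPM in control, 52.9 and 46.8 CPM in DMSO and 49.8 and 79.0 CPM in ONX-0914 libraries. All 4 injected libraries lay above the control range, and the ONX-0914 libraries overlapped the DMSO libraries. The Log2FC of Msmo1 was 0.76 (SE 0.22, FDR = 0.15) in ONX-0914 against control. It was 0.39 (SE 0.23) in DMSO against control and 0.38 (SE 0.24) in ONX-0914 against DMSO.
Cyp51, which removes a methyl group of lanosterol, had 100.2, 79.1 and 85.9 CPM in control, 78.9 and 94.95 CPM in DMSO and 73.7 and 57.8 CPM in ONX-0914 libraries. It was the only member for which both ONX-0914 libraries lay below all 5 other libraries. The Log2FC was -0.43 (SE 0.20, FDR = 0.28) in ONX-0914 against control and -0.41 (SE 0.21) in ONX-0914 against DMSO, with intervals that included 0.
Lss lay above all 5 other libraries in both ONX-0914 libraries (26.7 and 25.9 CPM, against 15.4 to 22.5 CPM), with a Log2FC of 0.45 (SE 0.22, FDR = 0.31). Ebp, a sterol isomerase, was above all control libraries only, at 12.3 and 13.9 CPM against 7.16 to 11.8 CPM in control. Nsdhl, the dehydrogenase that acts after Msmo1, and Dhcr7, the reductase of the last step, were near control in ONX-0914 replicate 1 (12.8 and 18.4 CPM) and higher in replicate 2 (27.6 and 34.4 CPM). Sqle, the squalene epoxidase, was at 30.2 CPM in replicate 1 and at 59.3 CPM in replicate 2, with 32.7 to 36.7 CPM in control. In this arm 8 of 11 members were higher in replicate 2 than in replicate 1, the reverse of the mevalonate arm. The arm as a whole had a median Log2FC of 0.39 in ONX-0914 against control, with 9 of 11 values positive, Cyp51 and Hsd17b7, a ketosteroid reductase, being the negative ones.

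Among the regulators, all 6 members had a positive Log2FC in ONX-0914 against control, with a median of 0.31, and the 2 with p below 0.05 were Stard4 and Srebf1. Stard4 had 20.7, 17.4 and 20.1 CPM in control, 16.9 and 18.6 CPM in DMSO and 32.2 and 29.9 CPM in ONX-0914 libraries. The ONX-0914 libraries did not overlap any other library, and the gap between the groups was larger than the spread within each. The Log2FC was 0.68 (SE 0.19, 95% confidence interval 0.24 to 1.12, FDR = 0.15) against control and 0.81 (SE 0.22, FDR = 0.20) against DMSO. In DMSO against control it was -0.13 (SE 0.21).
Srebf1 had 31.4, 33.5 and 35.2 CPM in control, 33.8 and 32.5 CPM in DMSO and 43.3 and 56.9 CPM in ONX-0914 libraries. The 5 libraries without ONX-0914 lay close together, and both ONX-0914 libraries lay above them. The Log2FC was 0.59 (SE 0.19, FDR = 0.17) against control and 0.60 (SE 0.21, FDR = 0.27) against DMSO, with -0.01 (SE 0.19) in DMSO against control.
Insig1, a target gene of SREBP as well as its brake, had 89.5, 65.7 and 89.5 CPM in control, 105 and 113 CPM in DMSO and 132 and 52.5 CPM in ONX-0914 libraries. Replicate 1 was the highest of the 7 libraries and replicate 2 the lowest. The Log2FC was 0.17 (SE 0.35, FDR = 0.81) against control and -0.25 (SE 0.38) against DMSO, so no direction could be given. Srebf2 and Scap went the other way, with 152 and 35.5 CPM in replicate 1 and 237 and 65.9 CPM in replicate 2, below and above all control libraries. Insig2 reached 61.4 CPM in replicate 1 and 43.0 CPM in replicate 2, against 37.8 to 48.0 CPM in control.

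In fatty acid synthesis, Elovl6, the elongase that extends palmitate, was the member with p below 0.05. It had 51.0, 50.7 and 47.1 CPM in control, 56.1 and 53.5 CPM in DMSO and 61.4 and 68.1 CPM in ONX-0914 libraries. The 3 groups did not overlap, with control lowest and ONX-0914 highest. The Log2FC of Elovl6 was 0.39 (SE 0.16, FDR = 0.24) in ONX-0914 against control, 0.14 (SE 0.16) in DMSO against control and 0.24 (SE 0.18) in ONX-0914 against DMSO.
Scd2 had 1406, 1445 and 1342 CPM in control, 1473 and 1506 CPM in DMSO and 1922 and 1444 CPM in ONX-0914 libraries. ONX-0914 replicate 1 alone was high, while replicate 2 lay within the control range, and the Log2FC was 0.27 (SE 0.21, FDR = 0.50). Scd1 was at 644 CPM in replicate 1 and at 274 CPM in replicate 2, above and below all control libraries (314 to 388 CPM). ONX-0914 replicate 1 also held the highest summed level of the oligodendrocyte and myelin markers, and replicate 2 the lowest, and their part in the Scd1 and Scd2 values was not tested. Acly, which makes cytosolic acetyl-CoA from citrate, and Fasn, the fatty acid synthase, had Log2FC values of 0.13 and 0.07, and Acaca had -0.15, the only negative value of the arm.

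**Figure D4:**
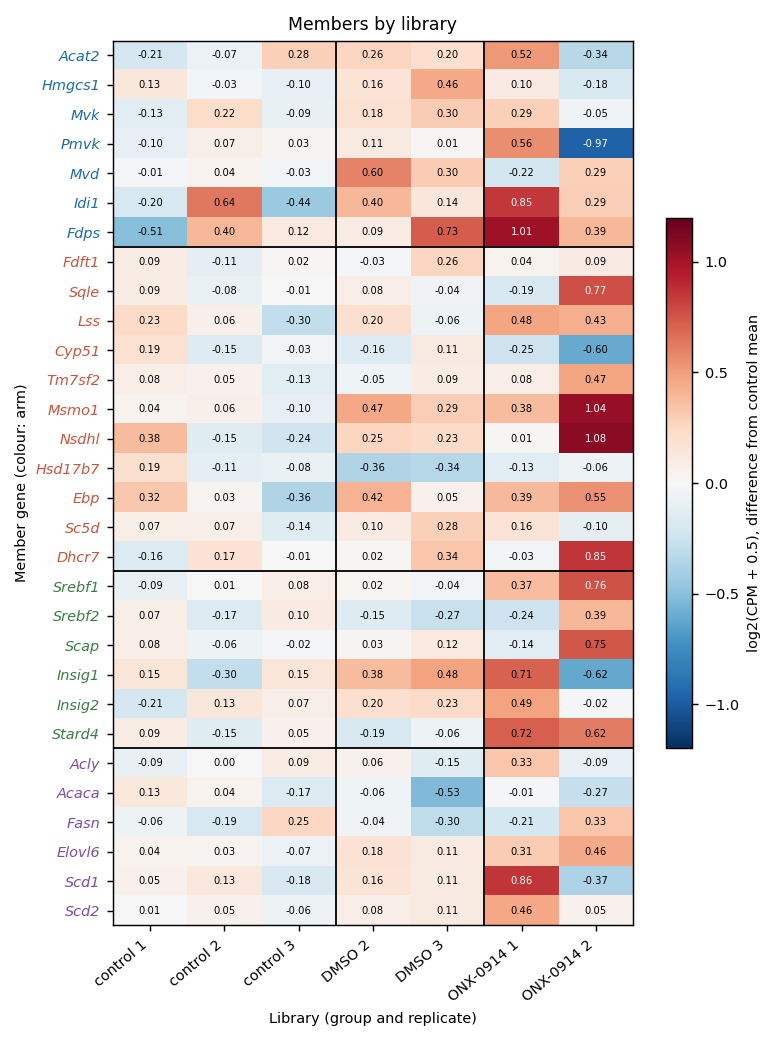
Log2 difference of each library from the control mean (colour and printed value, log2(CPM + 0.5)) for the 30 members, grouped by arm, in the 7 libraries. Stard4 is at 0.72 and 0.62 in the ONX-0914 libraries, while Pmvk is at 0.56 and -0.97 and Insig1 at 0.71 and -0.62.

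How far the 2 ONX-0914 libraries differed was then measured for all members. For 10 of 30 members (33.3%, against 23.4% of all genes tested), one ONX-0914 library lay above and the other below all control libraries. Replicate 1 was above and replicate 2 below for Acat2, Pmvk, Insig1, Acly and Scd1 (12.6% of all genes), and the reverse held for Mvd, Sqle, Srebf2, Scap and Fasn (10.8%). More than a 2-fold gap between the ONX-0914 libraries was found for 4 members (13.3%, against 24.7% of all genes), namely Pmvk, Insig1, Scd1 and Nsdhl. Between pairs of control or DMSO libraries 0 or 1 member differed by this much. Groups did not overlap, with ONX-0914 above control, for 6 members (20.0%, against 16.9% of all genes), namely Lss, Msmo1, Ebp, Srebf1, Stard4 and Elovl6. They did not overlap, with ONX-0914 below control, for Cyp51 alone (3.33%, against 16.3%). Against all 5 other libraries, both ONX-0914 libraries were higher for Lss, Srebf1, Stard4 and Elovl6 (13.3%, against 11.4%) and lower for Cyp51 (3.33%, against 11.3%).

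**Figure D5:**
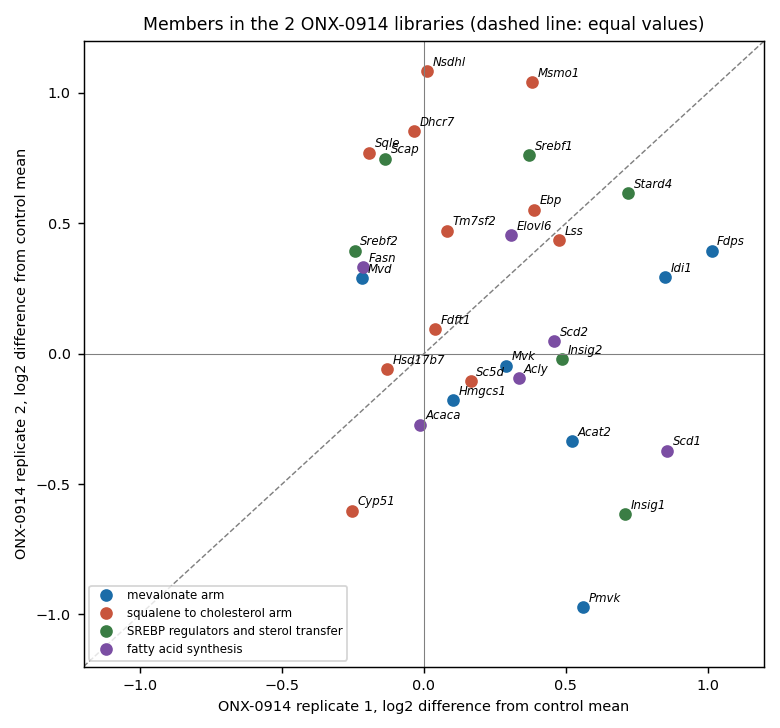
Log2 difference from the control mean in ONX-0914 replicate 1 (x axis) and replicate 2 (y axis), log2(CPM + 0.5), 1 point per member, coloured by arm, with a dashed line of equal values. Stard4, Lss and Elovl6 lie near the line, and Pmvk, Insig1 and Scd1 lie far below it.

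Leaving out either ONX-0914 library changed the calls. The lone ONX-0914 library was then assumed to vary like the control and DMSO libraries, and large parts of all genes were called. Without ONX-0914 replicate 1, 13 of 30 members were DEG against control (43.3%, against 51.2% of all genes), 9 higher and 4 lower (24.8% and 26.4% of all genes). Without ONX-0914 replicate 2, 5 members were DEG (16.7%, against 19.0% of all genes), all 5 higher (9.52% of all genes, with 9.50% lower). The Log2FC of Stard4 was 0.62 without replicate 1 and 0.73 without replicate 2, while its FDR reached 0.43 over all alternatives. The Log2FC of Pmvk, Insig1 and Scd1 had opposite signs in these 2 fits. For Pmvk, the values were -1.003 without replicate 1 and 0.56 without replicate 2. For Insig1, they were -0.64 and 0.70, and for Scd1 they were -0.39 and 0.85. Without replicate 1, the Log2FC was 1.04 for Msmo1, 0.75 for Srebf1, 0.45 for Elovl6 and -0.62 for Cyp51. Without replicate 2, these values were 0.38, 0.37, 0.31 and -0.26. Scd2 had 0.04 without replicate 1 and 0.46 without replicate 2. With any of the other 5 libraries left out, 0 members were called.

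DMSO against control was examined next. Of all genes tested, 2 (0.0152%) were DEG, and 0 of 30 members were. DESeq2 called 0.0186% and limma voom 0.00% of all genes, and neither called a member. An unadjusted p below 0.05 was found for 0 members, against 2.65% of all genes. The median Log2FC of the members was 0.12, against -0.00 for all genes, and 22 of 30 values were positive (73.3%, against 49.5%). Without control replicate 3 this median was 0.071. All 7 values of the mevalonate arm were positive, from 0.06 (Pmvk) to 0.48 (Mvd). Both DMSO libraries lay above all control libraries for 8 members (26.7%, against 15.7% of all genes), namely Hmgcs1, Mvd, Msmo1, Sc5d, Insig1, Insig2, Elovl6 and Scd2. They lay below them for Hsd17b7 (1972 of the 13152 genes did so), at 20.1 and 20.3 CPM against 24.0 to 29.6 CPM. The oligodendrocyte and myelin markers stood at a median of 0.19 and 0.48 in DMSO replicates 2 and 3 and at 0.14, 0.19 and -0.34 in control replicates 1 to 3. By this median DMSO replicate 2 was level with control replicate 2, and control replicate 3 was low. These markers summed to 8478 and 10021 CPM in DMSO replicates 2 and 3, against 5443 to 8176 CPM in control. All 12 had a positive Log2FC in DMSO against control, with a median of 0.37. The part of these markers in the member values was not tested. ONX-0914 and DMSO were both set against the same control libraries, so their Log2FC values are not independent.

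ONX-0914 against DMSO compares 2 groups with the same injection schedule. The ONX-0914 group includes replicate 1, whose markers went against the label hippocampus, and the part of this difference was not tested. In this comparison, 6 of all genes tested (0.0456%) were DEG. None of the members was, and none was with DESeq2 (0.798% of all genes) or limma voom. An unadjusted p below 0.05 was found for 2 members, Stard4 and Srebf1, both higher after ONX-0914 (6.67%, against 8.08% of all genes), and DESeq2 gave 1 member (5.80% of all genes). The median Log2FC of the members was 0.24, against 0.05 for all genes, and 21 of 30 values were positive (70.0%, against 53.8%). By arm, the medians were -0.10 for the mevalonate arm, 0.31 for the squalene to cholesterol arm, 0.32 for the regulators and 0.21 for fatty acid synthesis. All 6 fatty acid values were positive, between 0.13 (Acaca) and 0.25 (Fasn), whereas 5 of 7 mevalonate values were negative. Both ONX-0914 libraries lay above both DMSO libraries for Lss, Hsd17b7, Srebf1, Stard4 and Elovl6 (16.7%, against 20.8% of all genes) and below them for Hmgcs1, Mvd and Cyp51 (10.0%, against 19.7%). Leaving out ONX-0914 replicate 1 brought the median of the members to -0.01, and leaving out replicate 2 brought it to 0.14. The number of members called rose to 15 (against 46.0% of all genes) and to 4 (2324 of all genes), respectively.

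Genes around the 2 pathways were examined in the same model, and none of the 58 tested was a DEG in any of the 3 comparisons, nor with limma voom. DESeq2 called 1 of them, Mylip, in ONX-0914 against control (1.32% of all genes). Without a filter on low counts edgeR called Mylip and Ggps1 (2.15% of the 26822 genes then tested). A fit without ONX-0914 replicate 1 or 2 leaves a lone ONX-0914 library, so the Log2FC of such fits is given below. Of 12 further genes of SREBP cleavage and sterol-dependent degradation, 2 had p below 0.05 in ONX-0914 against control, both lower (16.7%, against 8.04% of all genes), and the median Log2FC was -0.12. Ube2g2, a ubiquitin-conjugating enzyme of endoplasmic reticulum degradation, had 79.5, 98.2 and 82.9 CPM in control, 86.9 and 82.8 CPM in DMSO and 53.9 and 49.2 CPM in ONX-0914 libraries. Its 2 ONX-0914 values lay below all others, with a Log2FC of -0.76 (SE 0.17, FDR = 0.11). Leaving out ONX-0914 replicate 1 gave -0.83 and leaving out replicate 2 gave -0.70. Mbtps2, a protease that releases active SREBP, had a Log2FC of -0.49 (SE 0.19, FDR = 0.22). It was -0.20 in DMSO against control, with both DMSO libraries also below all control libraries. Syvn1 of the same list went the other way, with 0.75 (SE 0.33, FDR = 0.27) in ONX-0914 against control. Leaving out ONX-0914 replicate 1 gave 1.17 and leaving out replicate 2 gave 0.02. In ONX-0914 against DMSO, Syvn1 had 0.98 (SE 0.37, FDR = 0.29). Of the 12 genes, 5 had a positive and 7 a negative Log2FC in ONX-0914 against control.
Of 20 further genes of fatty acid elongation, desaturation and supply, 4 had p below 0.05, all higher (20.0%, against 10.6% of all genes), and the median was 0.26. Elovl5, an elongase of polyunsaturated fatty acids, had a Log2FC of 0.57 (SE 0.16, FDR = 0.15). It was 0.29 in DMSO against control, with both DMSO libraries also above all control libraries. Hsd17b12, the reductase of the elongation cycle, had 0.74 (SE 0.23, FDR = 0.16) in ONX-0914 against control. Leaving out ONX-0914 replicate 1 gave 0.98, and leaving out replicate 2 gave 0.45. Its level was 51.3 and 74.9 CPM in the ONX-0914 libraries, 49.9 and 46.8 CPM in DMSO and 33.3 to 46.0 CPM in control. Both DMSO libraries thus also lay above control, with a Log2FC of 0.35 in DMSO against control.
Of 18 genes of sterol turnover, efflux and the LXR sterol receptors, 17 were tested, Ch25h having too few reads. Among them 5 were higher and 2 lower with p below 0.05 (29.4% and 11.8%, against 10.6% and 8.04% of all genes), with a median of 0.24. Mylip, a ubiquitin ligase induced by LXR that removes lipoprotein receptors, had 40.3, 38.7 and 35.5 CPM in control, 26.8 and 22.8 CPM in DMSO and 21.4 and 16.1 CPM in ONX-0914 libraries. Both injected groups lay below control, with a Log2FC of -1.04 (SE 0.21, FDR = 0.087) for ONX-0914 and -0.62 for DMSO. For ONX-0914, DESeq2 gave -1.07 (FDR = 0.026), and the FDR ran from 6.0e-06 to 0.39 over all alternatives. Without ONX-0914 replicate 1 or 2, the Log2FC of Mylip was -1.25 and -0.83. Lcat, which esterifies cholesterol on lipoproteins, had 0.84 (SE 0.26, FDR = 0.17) in ONX-0914 against control, with 1.09 without ONX-0914 replicate 1 and 0.46 without replicate 2. Osbpl1a had 0.57 (SE 0.18, FDR = 0.17) in ONX-0914 against control and -0.23 in DMSO against control. In ONX-0914 against DMSO, Osbpl1a had 0.80 (SE 0.20, FDR = 0.17).
Of 9 genes of the isoprenoid branch, which leaves the pathway at farnesyl diphosphate, Ggps1, the geranylgeranyl diphosphate synthase, had a Log2FC of 1.09 (SE 0.32, FDR = 0.16). Its level was 11.8 to 17.8 CPM in control, 24.1 and 14.6 CPM in DMSO and 22.9 and 40.4 CPM in ONX-0914 libraries, and the Log2FC moved to 1.42 with ONX-0914 replicate 1 left out and to 0.61 with replicate 2 left out. Dhdds, which starts dolichol synthesis, had -0.39 (SE 0.16, FDR = 0.24) in ONX-0914 against control. It had -0.25 in DMSO against control, with both DMSO libraries also below all control libraries. The median of the branch was 0.21 in ONX-0914 against control.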

How the data were processed

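The authors isolated total RNA from hippocampus, prepared directional libraries and sequenced them single-end in reads of 100 bases. Per the submitters' processing notes, Trimmomatic 0.39, STAR 2.7.3a, featureCounts 2.00 and the build GRCm39 were used. The annotation release and the strand setting are not given in the sources used here. The deposited files hold whole-number read counts per gene and library, without normalization. Of the listed reads, 89.6% to 91.4% were on genes, and the summary lines (no feature, ambiguous) stayed out of library sizes and tests. Symbols and exon lengths came from GENCODE M21, and symbols were found for 52083 of the identifiers.

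The quasi-likelihood model of edgeR 4.0.16 (R 4.3.3) was fitted to all 7 libraries, with a mean for each of the 3 groups, TMM scaling and the filterByExpr filter on low counts. P-values of glmQLFTest were adjusted by the Benjamini–Hochberg method over 13152 genes. A DEG had an FDR below 0.05. Log2FC values use a prior count of 0.125, and log2 differences of single libraries use log2(CPM + 0.5). Counting error is smaller in ONX-0914 replicate 2, the deepest library. The chi-square statistic per degree of freedom of the counts was 2.06 to 2.55 for pairs within the control and DMSO groups and 51.0 for the ONX-0914 pair, so no library was a copy of another of its group. The labels give no batch. Alternatives were DESeq2 1.42.0, limma voom (limma 3.58.1), other scalings and filters, fits to only the 2 groups compared, a replicate block, and leaving out each library. DESeq2 and the edgeR fit without a filter covered 26822 genes. Thinning ONX-0914 replicate 2 to the total of replicate 1 was chosen after seeing the data.

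The members and lists were chosen with earlier results of these data known. Values of every library were given for members that were called, had an unadjusted p below 0.05 in any comparison, or were the most abundant of their arm per kilobase. From the lists of other genes, up to 3 with the smallest unadjusted p in ONX-0914 against control could be named, and other members were given by ranges or, where a count turned on them, by name. The marker lists were oligodendrocytes and myelin, oligodendrocyte precursors, astrocytes, microglia, endothelium, choroid plexus, hippocampal neurons, thalamus and midbrain, and striatum.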

Additional observations from a re-analysis of the deposited data

How the results depend on the processing

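Members called as DEG numbered 0 in each comparison under every alternative, except without an ONX-0914 library, where the range over left-out libraries was 0 to 13 in ONX-0914 against control and 0 to 15 in ONX-0914 against DMSO (0 to 0 in DMSO against control). A lone ONX-0914 library has no spread of its own. Over left-out libraries the median Log2FC of the members was 0.24 to 0.30 in ONX-0914 against control, 0.071 to 0.13 in DMSO against control and -0.011 to 0.25 in ONX-0914 against DMSO. With total counts in place of TMM, the first and last medians were 0.39 and 0.38, while the median of all genes moved to 0.19 and 0.18. In ONX-0914 against DMSO the median was 0.22 with DESeq2, 0.18 with voom, 0.23 with RLE size factors and 0.27 without a filter on low counts.

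All genes called in ONX-0914 against control numbered 15, but 353 with DESeq2, 578 without a filter, 3 with the compared groups alone and 29 with the deep library thinned (0 to 7023 over left-out libraries, with 0 without any 1 control library and 7023 and 2594 without ONX-0914 replicate 1 or 2). In DMSO against control they numbered 2, but 5 with DESeq2, 0 with voom, 11 without a filter, 141 with the compared groups alone and 0 after thinning (0 to 146). In ONX-0914 against DMSO they numbered 6, but 214 with DESeq2, 11 with RLE, 3 with total counts, 297 without a filter and 0 with the compared groups alone (0 to 6313). The cause was not tested.

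Deviations of same-numbered libraries from their group means had correlations of -0.096 to 0.064. In a group of 2 libraries the deviations mirror each other, so these correlations cannot show whether the numbers pair libraries. With the replicate block, 0 members and 1, 0 and 0 of all genes were called in ONX-0914 against control, DMSO against control and ONX-0914 against DMSO, and the medians of the members were 0.19, 0.16 and 0.10.

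Of 384 Log2FC values of the 8 described members under alternatives, 12 changed sign. Cyp51 in DMSO against control was 0.067 with the replicate block, and Hmgcs1 in ONX-0914 against control was 0.10 with total counts. The other 10 arose without single libraries. Over left-out libraries, Cyp51 (-0.16 to 0.10) and Srebf1 (-0.054 to 0.030) crossed 0 in DMSO against control. Hmgcs1 (-0.19 to 0.099) and Insig1 (-0.64 to 0.70) did so in ONX-0914 against control, and Insig1 (-1.06 to 0.28), Msmo1 (-0.0096 to 0.65) and Scd2 (-0.054 to 0.36) in ONX-0914 against DMSO. With 2 or 3 libraries per group, a p that misses the threshold does not show that a member was unchanged.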
